A study of Mus musculus with 12 samples.

Results

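The genes described here are those of the mitochondrial respiratory chain and ATP synthase: 99 of the 55487 genes in the count matrix, 86 of them nuclear and 13 encoded in the mitochondrial genome. They were chosen by symbol. Taken were genes named after subunits of complexes I to V (Nduf, Sdh, Uqcr, Cox and Atp5 symbols), cytochrome c (Cycs) and the mitochondrial mRNA genes. Left out were 10 pseudogenes with such a symbol that also holds -ps. Cox6c2, annotated as a processed pseudogene, has no -ps in its symbol and is counted with complex IV. Of the nuclear genes 36 belonged by symbol to complex I, 4 to complex II, 8 to complex III, 19 to complex IV and 18 to complex V, and Cycs stood alone. The mitochondrial genome gave 7 genes of complex I, 1 of complex III, 3 of complex IV and 2 of complex V.

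RNA with polyA tails was sequenced from female mouse embryonic stem (ES) cells of a C57BL6/CAST hybrid background in 4 groups of 3 libraries. The groups were SIRT7-KO (here KO, labelled as lacking the deacylase Sirt7) at day 7, WT at day 7, KO at day 0 and WT at day 0. Per the treatment protocol, LIF, a cytokine that keeps ES cells from differentiating, was given until day 0 and then left out. A treatment label goes against this: it reads LIF for KO replicates 1 and 3 and WT replicate 2 and none for KO replicate 2 and WT replicates 1 and 3, the same on both days. The groups follow the day label, and differences between days are given by day, not by LIF. The labels do not say whether the replicates were separate cultures, so p-values measure the spread between these libraries, which may be technical.

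The respiratory chain passes electrons from NADH (complex I) and succinate (complex II) through complex III and cytochrome c to oxygen at complex IV, and the proton gradient built on the way drives ATP synthase, complex V. Complexes I, III, IV and V combine subunits from both genomes, while complex II is wholly nuclear. Naive ES cells are known to use both respiration and glycolysis, and the balance changes as they leave that state.

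Library totals ran from 25190483 to 69079368 counts, and 95 of the 99 genes passed the filter on low counts. Every library with the KO label had more Sirt7 than every WT library of its day: 25.1, 20.1 and 23.8 CPM (counts scaled to library size) in KO against 10.2, 10.6 and 15.3 CPM in WT at day 7, and 19.2, 23.8 and 16.9 CPM in KO against 12.7, 8.03 and 10.3 CPM in WT at day 0. By edgeR these were log2 differences of 0.94 at day 7 (adjusted p = 0.299) and 0.95 at day 0 (adjusted p = 0.182). Gene counts do not show which part of the gene the reads cover, so the label could not be checked, and every direction between genotypes given here would turn if the labels were exchanged. The 8 markers of the naive state summed to 292 to 301 CPM in KO and 269 to 301 CPM in WT at day 7, against 6750 to 7149 CPM in KO and 6833 to 6989 CPM in WT at day 0. Markers of embryonic fibroblasts, 8 in number, summed to 1123 to 1156 CPM in KO and 1378 to 1566 CPM in WT at day 7, against 34.6 to 36.8 CPM in KO and 24.4 to 35.2 CPM in WT at day 0, when Col3a1, S100a4, Postn and Dcn were at the floor of 3 counts a group. Of these 8, 7 were higher at day 7 and Thy1 was lower. In bulk RNA, fewer cells of a type and less RNA per cell cannot be told apart, and the part of the changing cell make-up in what follows was not tested.

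The mitochondrial genome leaves few bases between its genes. On the same strand mt-Atp6 and mt-Co3 share base 8607 alone. A further 2 pairs of mRNA genes overlap there by several bases, which bears on the readings of mt-Atp8 and mt-Nd4l below. The overlaps of these 2 pairs are shown in capitals with 12 bases on either side, from the + strand of GRCm38. The genes mt-Atp8 and mt-Atp6 share 43 bases, and mt-Nd4l and mt-Nd4 share 7 bases. Reads within them cannot be told apart.
mt-Atp8 and mt-Atp6, chrM:7915-7981: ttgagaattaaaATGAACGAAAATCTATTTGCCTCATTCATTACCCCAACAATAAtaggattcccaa
mt-Nd4l and mt-Nd4, chrM:10155-10185: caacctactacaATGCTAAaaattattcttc

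At day 7 most nuclear respiratory chain genes had lower RNA levels than at day 0, in both genotypes. In KO 81 of the 95 genes tested fell and 2 rose, where 32.3% of all 19235 genes tested fell and 31.1% rose, 63.4% in all. In WT 75 fell and 3 rose, where 32.1% of all genes fell and 32.9% rose, 65.1% in all (edgeR's quasi-likelihood test, adjusted p at most 0.05 by Benjamini-Hochberg over all genes tested). With DESeq2, 83 genes were called in KO and 81 in WT, where 66.0% and 67.6% of all genes were called. The calls overlapped: 74 of the 81 genes that fell in KO and 74 of the 75 that fell in WT were the same genes. The same overlap over all genes was not counted, so it is not shown to be particular to these genes. The median log2 difference (day 7 minus day 0) of the 82 nuclear genes tested was -0.64 in KO and -0.66 in WT, beside -0.02 in KO and 0.01 in WT over all genes. For the 13 mitochondrially encoded genes it was -0.28 in KO and -0.12 in WT.

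The 86 nuclear genes together gave 9319, 9201 and 9406 CPM in KO at day 7, against 12989, 15126 and 14837 CPM at day 0. WT had 10520, 9850 and 9845 CPM at day 7, against 15293, 16402 and 15457 CPM at day 0. Every day 7 library lay below every day 0 library of its genotype, and replicate 1 was the lowest of the KO libraries at day 0. The ratio of means, day 7 over day 0, was 0.650 in KO and 0.641 in WT for these nuclear genes, and 0.799 in KO and 0.836 in WT for the mitochondrially encoded genes.

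**Figure D1:**
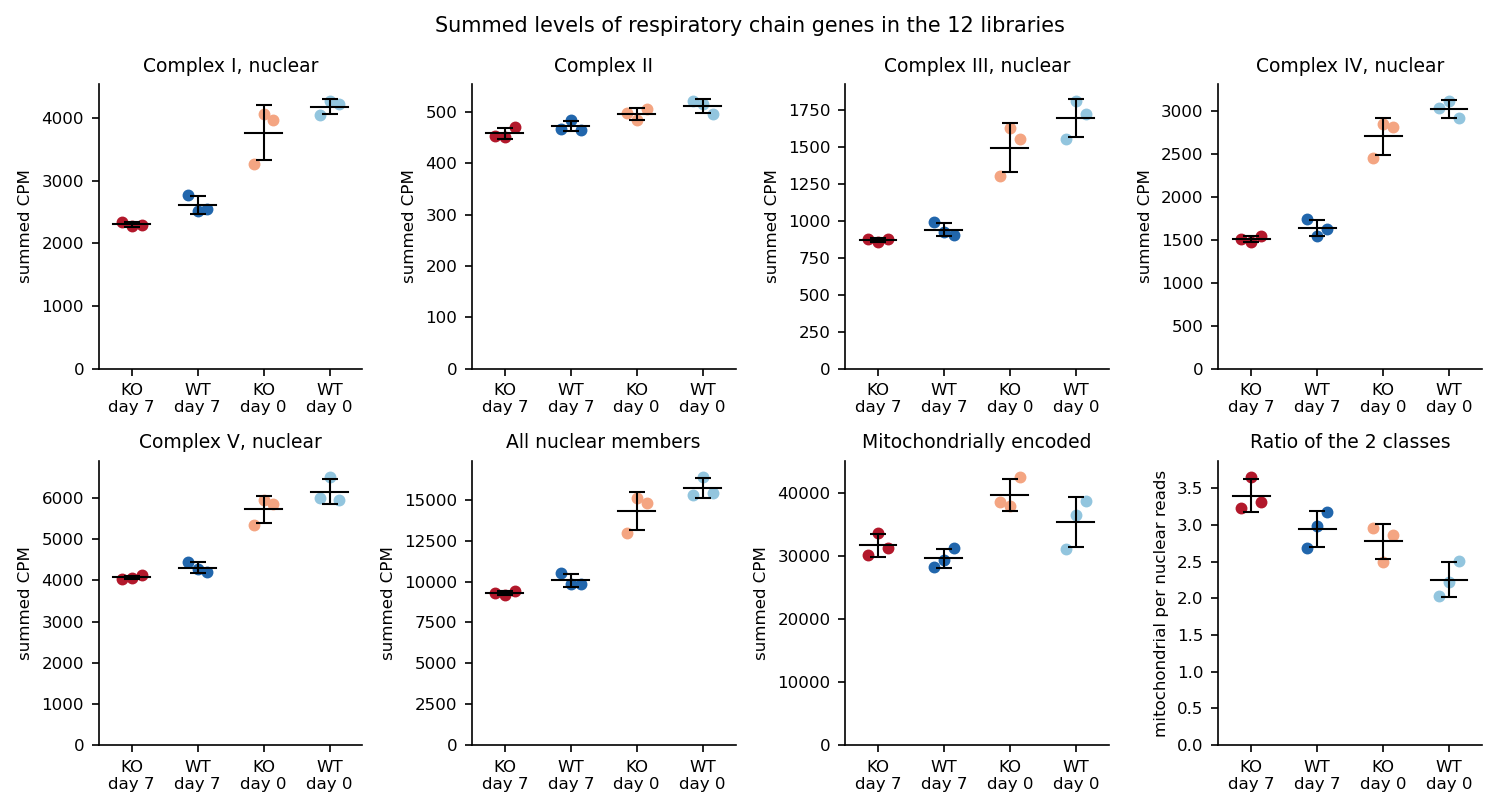
Summed level in CPM of the nuclear genes of each complex, of all nuclear genes and of the mitochondrially encoded genes, and the ratio of the 2 classes, per library (points), with mean and SD of 3 libraries (lines); vertical axes start at 0. Nuclear sums of complexes I, III, IV and V at day 7 lay under all day 0 libraries, complex II changed least, and the ratio averaged 3.40 in KO and 2.95 in WT at day 7, against 2.78 in KO and 2.25 in WT at day 0.

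The complexes did not fall alike. Complexes IV and III had the lowest medians, -0.95 and -0.91 in KO and -1.06 and -0.94 in WT. Complex I followed with -0.65 in KO and -0.69 in WT, and complex V with -0.55 in KO and -0.54 in WT. Complex II, the complex with no mitochondrially encoded subunit, had -0.18 in KO and -0.15 in WT. By count, 35 of 36 complex I genes, 2 of 4 of complex II, 8 of 8 of complex III, 13 of 16 of complex IV and 15 of 17 of complex V fell in KO. In WT the numbers were 33 of 36, 1 of 4, 6 of 8, 14 of 16 and 15 of 17. These medians were compared as descriptions, with no test between complexes.

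**Figure D2:**
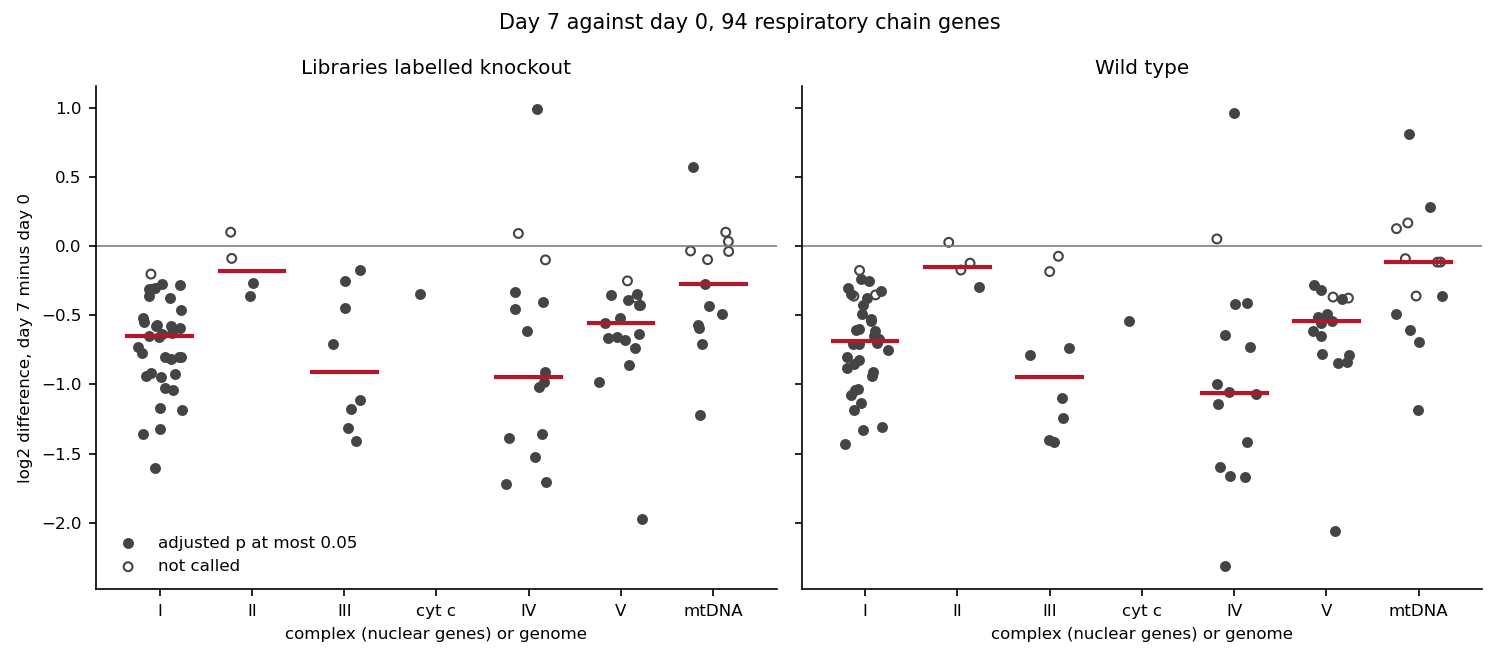
Log2 difference, day 7 minus day 0 (vertical axis), of 94 respiratory chain genes by complex, with the 13 mitochondrially encoded genes (mtDNA) apart, in libraries labelled KO (left) and WT (right). Filled points passed adjusted p at most 0.05 by edgeR, and red lines are medians over the tested genes of a column. Cox7b2, with no read at day 7, enters its median but is not drawn. The lowest points are Atp5g1 (complex V) and Cox7b (complex IV) in KO, and Cox7a1 (complex IV) and Atp5g1 in WT.

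Of the genes of complex I, the 7 nuclear core subunits that carry the flavin and the iron-sulphur clusters all fell in both genotypes, with a median of -0.63 in KO and -0.43 in WT. The 29 accessory subunits by symbol had medians of -0.66 in KO and -0.70 in WT, and 28 of them fell in KO and 26 in WT. Ndufb4, an accessory subunit of the membrane arm (chromosome 16, 37647170 to 37654453), fell furthest: 32.1, 38.4 and 33.9 CPM in KO at day 7 against 93.8, 109 and 114 CPM at day 0. In WT it had 43.4, 39.6 and 37.0 CPM at day 7 against 98.1, 117 and 109 CPM at day 0. The groups lay far apart, with a log2 difference of -1.60 in KO (SE 0.11, adjusted p = 2.45e-07) and -1.43 in WT (SE 0.11, adjusted p = 5.71e-07) by edgeR. At the other end stood Ndufa13, an accessory subunit also known as GRIM-19, the single nuclear complex I gene called in neither genotype: its log2 difference was -0.20 in KO (adjusted p = 0.171) and -0.18 in WT (adjusted p = 0.227) by edgeR. Ndufs4 and Ndufb3 were called in KO alone, at -0.55 and -0.52, and had -0.35 and -0.36 in WT with adjusted p = 0.0857 and 0.0631 by edgeR. The interaction, which tests such a difference between genotypes, was called for none of the 95 genes.

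The 4 genes of complex II, succinate dehydrogenase, moved little. Sdha, its flavoprotein, had 189, 191 and 192 CPM in KO at day 7 against 190, 160 and 184 CPM at day 0, and 177, 189 and 190 CPM in WT at day 7 against 192, 181 and 174 CPM at day 0. The ranges of the 2 days overlapped in both genotypes, and the log2 difference was 0.10 in KO (adjusted p = 0.254) and 0.03 in WT (adjusted p = 0.769) by edgeR. The membrane anchor Sdhc fell by 0.36 on the log2 scale in KO and by 0.30 in WT (SE 0.08 each; adjusted p = 0.00214 and 0.00712 by edgeR). Sdhb, the iron-sulphur subunit, fell by 0.27 in KO (adjusted p = 0.00832), and had -0.17 in WT (adjusted p = 0.0611 by edgeR; called there by DESeq2, with the RLE scaling and without replicate 1 of day 7). The other anchor, Sdhd, had -0.09 in KO and -0.12 in WT and was called in neither.

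In complex III the small subunits Uqcrb, Uqcrq, Uqcr10 and Uqcr11 fell most. Uqcrq had 70.1, 73.4 and 69.6 CPM in KO at day 7 against 151, 214 and 200 CPM at day 0, and 93.1, 82.3 and 84.1 CPM in WT at day 7 against 205, 248 and 232 CPM at day 0. All day 7 values were below 100 CPM and all day 0 values above 150 CPM, with log2 differences of -1.41 in KO and -1.40 in WT (SE 0.12 each; adjusted p = 1.69e-06 in both by edgeR). Uqcrb, which lies by the quinone-binding site, had 53.6, 58.6 and 60.4 CPM in KO at day 7 against 113, 147 and 171 CPM at day 0, and fell by 1.41 in WT. The larger Uqcrfs1 and Uqcrc2 changed less. Uqcrfs1, the Rieske iron-sulphur protein, had -0.25 in KO (adjusted p = 0.0297) and -0.18 in WT (adjusted p = 0.0912 by edgeR), and the core protein Uqcrc2 had -0.17 in KO (adjusted p = 0.0287) and -0.07 in WT (adjusted p = 0.311 by edgeR). Cycs, the somatic cytochrome c that carries electrons from complex III to complex IV, fell by 0.35 in KO and by 0.54 in WT (SE 0.09 each; adjusted p = 0.00509 and 0.000262 by edgeR).

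Complex IV held the widest range of changes among the genes. Cox7b, an X-linked accessory subunit (X, 106015700 to 106022450), had 117, 110 and 114 CPM in KO at day 7 against 344, 364 and 416 CPM at day 0. In WT it had 116, 115 and 121 CPM at day 7 against 344, 399 and 377 CPM at day 0. The fall was of similar size in both genotypes, -1.72 in KO and -1.67 in WT (SE 0.08 each; adjusted p = 1.26e-08 and 1.49e-08 by edgeR), and the log2 difference between genotypes (KO minus WT) was -0.04 at day 7 and 0.01 at day 0. Cox7c fell by 1.52 in KO and by 1.60 in WT (SE 0.10 each), and Cox5a by 1.36 in KO and by 1.42 in WT (SE 0.08 each). Both are nuclear subunits with a broadly expressed gene. Cox7a2l, a factor linked to supercomplexes of complexes III and IV, had 0.09 in KO and 0.05 in WT and was called in neither.

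Several subunits of complex IV have a second, tissue-restricted gene, and these low-level forms moved in both directions. Cox7a1, the heart and muscle form, had 2.59, 2.13 and 3.22 CPM in KO at day 7 against 6.38, 8.63 and 10.9 CPM at day 0, and 2.54, 1.97 and 2.21 CPM in WT at day 7 against 12.98, 10.2 and 10.2 CPM at day 0. It fell more than its common partner: -1.71 in KO and -2.31 in WT (SE 0.24 each; adjusted p = 7.23e-05 and 6.97e-06 by edgeR), while Cox7a2 fell by 0.61 in KO and by 0.73 in WT. Per kilobase of exon, Cox7a1 made up 5.35% ± 1.15 of the pair in KO and 4.403% ± 0.32 in WT at day 7, against 10.7% ± 0.81 in KO and 12.3% ± 2.51 in WT at day 0 (SD, n = 3). Cox6b2, the testis form, fell by 1.39 in KO and by 1.14 in WT, and its share of the pair with Cox6b1 was 3.16% ± 0.14 in KO and 3.30% ± 0.56 in WT at day 7, against 6.40% ± 1.11 in KO and 5.35% ± 0.82 in WT at day 0 (SD, n = 3).

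Cox4i2, a form of subunit 4 known from lung and from cells in low oxygen, was the single nuclear gene to rise. It had 2.49, 1.99 and 1.93 CPM in KO at day 7 against 0.85, 1.48 and 0.92 CPM at day 0, and 3.93, 1.47 and 2.83 CPM in WT at day 7 against 1.16, 1.67 and 1.35 CPM at day 0. The days lay apart in KO and overlapped in WT; the log2 difference was 0.99 (SE 0.37, adjusted p = 0.0363) in KO and 0.96 (SE 0.37, adjusted p = 0.0373) in WT by edgeR. Both calls were lost under 7 of 13 alternatives, with adjusted p up to 0.107 in KO and 0.180 in WT. Its common partner Cox4i1 fell by 0.98 in KO and by 1.00 in WT, and the Cox4i2 share per kilobase was 2.02% ± 0.51 in KO and 2.20% ± 1.11 in WT at day 7, against 0.52% ± 0.18 in KO and 0.60% ± 0.21 in WT at day 0 (SD, n = 3). Cox7b2, Cox6a2 and Cox8c had no read in any day 7 library and between 17 and 54 reads per group at day 0. Against a floor of 3 counts over the group, Cox7b2 (testis) was at least 18.4-fold lower at day 7 in KO and 14.2-fold in WT, and Cox8c (testis) at least 12.6-fold in KO and 12.3-fold in WT. The WT limits turn on single day 0 libraries: without replicate 3 they were 8.08-fold for Cox7b2 and 4.04-fold for Cox8c, and without replicate 2 they were 21.97-fold for both. Cox6a2 (heart and muscle) had 0, 17 and 0 reads in KO and 27, 4 and 7 reads in WT at day 0. All KO reads thus came from 1 library and most WT reads from another, so no fold is given. Cox8b, the other heart and muscle form, had a read in 1 library alone. Markers of heart and skeletal muscle, 9 in number, summed to 33.9 to 37.0 CPM in KO and 34.1 to 43.2 CPM in WT at day 7, against 21.9 to 26.3 CPM in KO and 25.6 to 27.4 CPM in WT at day 0. The sums hide a split: of the 6 markers tested, 2 rose and 3 fell in each genotype, beside the shares of all genes given above. Their median log2 difference was -0.83 in KO and -1.13 in WT. The part of muscle-like cells in the values of the tissue-restricted genes was not tested.

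Atp5g1 (chromosome 11, 96068852 to 96075670) had the largest fall of complex V. It is 1 of 3 genes, with Atp5g2 and Atp5g3, that encode the same mature c subunit, which forms the rotating ring of ATP synthase. Its level was 73.5, 70.02 and 74.3 CPM in KO at day 7 against 233, 330 and 291 CPM at day 0, and 92.8, 87.5 and 80.2 CPM in WT at day 7 against 362, 359 and 367 CPM at day 0. No day 7 library came near a day 0 library: the log2 difference was -1.97 in KO and -2.06 in WT (SE 0.11 each; adjusted p = 5.24e-08 and 3.43e-08 by edgeR). Atp5g2 fell by 0.55 in KO and by 0.49 in WT, and Atp5g3 by 0.52 in KO and by 0.51 in WT. The Atp5g1 share of the 3 genes per kilobase was 6.97% ± 0.30 in KO and 7.40% ± 0.11 in WT at day 7, against 16.7% ± 0.83 in KO and 19.1% ± 0.51 in WT at day 0 (SD, n = 3). The height of such a share depends on the length used, the union of all annotated exons of a gene. That was 4912 bases for Atp5g1, 1675 for Atp5g2 and 2181 for Atp5g3. The catalytic subunit Atp5b changed less, with -0.35 in KO and -0.38 in WT, and Atp5c1, of the central stalk, had -0.67 in KO and -0.65 in WT, all called. Atp5d and Atp5mpl were called in neither genotype, with -0.25 in KO and -0.38 in WT for Atp5d and -0.38 in KO and -0.37 in WT for Atp5mpl.

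**Figure D3:**
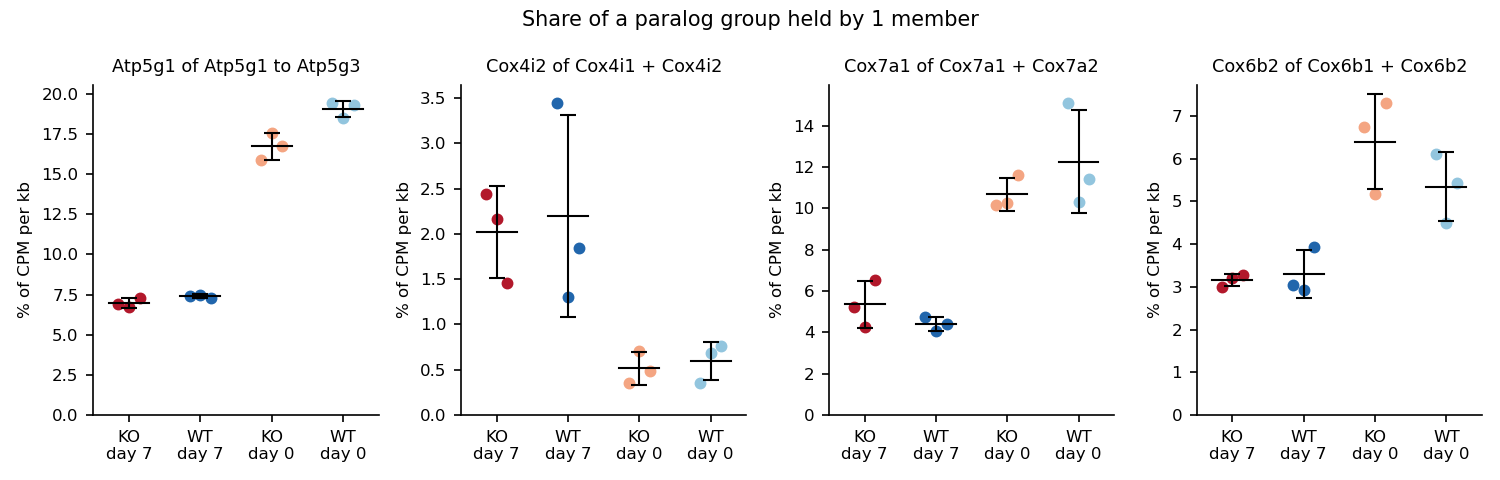
Share of a paralog group, in percent of its summed CPM per kilobase, that came from Atp5g1, Cox4i2, Cox7a1 and Cox6b2, per library (points), with mean and SD of 3 libraries (lines); axes start at 0. Atp5g1 lay at 6.71 to 7.50% at day 7 and at 15.9 to 19.4% at day 0, and Cox4i2 took the opposite direction from the other 3.

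The mitochondrially encoded genes did not move as a block. Per kilobase, as means of the 4 groups, they stood above the highest nuclear gene, Cox8a at 431 CPM per kb, from mt-Nd3 at 479 to mt-Nd1 at 5153 CPM per kb, with mt-Atp6 at 4927 and mt-Co1 at 4723 CPM per kb next to the top. Within single groups 12 of the 13 did so: mt-Nd3 had 295 CPM per kb in KO and 285 in WT at day 7, below Cox6a1 at 337 in KO and 380.3 in WT, and mt-Nd4l had 452 in KO and 308 in WT at day 0, below Cox8a at 549 in KO and 611 in WT. The highest nuclear gene was Ndufb11 in complex I (143 CPM per kb), Sdhd in complex II (69.1), Uqcr10 in complex III (308), Cox8a in complex IV and Atp5b in complex V (349.7), and the lowest were Ndufb2 (3.38), Sdhc (30.4), Uqcrc2 (51.7), Cox7b2 (0.409) and Atp5e (17.8), all in CPM per kb as means of the 4 groups. These ranks depend on the union of annotated exons used as length, such as 5628 bases for Ndufb2 and 1756 for Atp5e. Of the 13, 7 fell and 1 rose in KO, where 32.3% of all genes fell and 31.1% rose, and 5 fell and 2 rose in WT, where 32.1% fell and 32.9% rose; the WT share that fell is near that of all genes. The 2 mitochondrial rRNAs took 0.0562 to 0.0622% of counts in KO and 0.0454 to 0.0585% in WT at day 7, against 0.165 to 0.186% in KO and 0.105 to 0.157% in WT at day 0; their part in these results was not tested. Those that fell in both genotypes were mt-Nd3, mt-Nd1, mt-Co3, mt-Co2 and mt-Atp6. The gene mt-Nd3 (M, 9459 to 9806), a core subunit of complex I, had 94.2, 108 and 106 CPM in KO at day 7 against 205, 237 and 276 CPM at day 0, and 94.4, 91.7 and 112 CPM in WT at day 7 against 167, 261 and 249 CPM at day 0. The days did not overlap, and it fell most of the 13: -1.22 in KO (SE 0.17, adjusted p = 5.99e-05) and -1.19 in WT (SE 0.16, adjusted p = 7.13e-05) by edgeR. The log2 difference was -0.71 in KO and -0.70 in WT for mt-Nd1, and -0.59 in KO and -0.61 in WT for mt-Co3. It was -0.49 in both for mt-Co2, and -0.44 in KO and -0.36 in WT for mt-Atp6.

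The next mRNA gene along from mt-Nd3, mt-Nd4l (M, 9877 to 10173), was the one that rose in both genotypes. It had 186, 214 and 200 CPM in KO at day 7 against 165, 111 and 127 CPM at day 0, and 134, 186 and 161 CPM in WT at day 7 against 93.3, 87.9 and 92.9 CPM at day 0. The days did not overlap in either genotype, and the log2 difference was 0.57 in KO (SE 0.15, adjusted p = 0.00509) and 0.81 in WT (SE 0.15, adjusted p = 0.000522) by edgeR, called under all 13 alternatives run. Its overlap with mt-Nd4, shown above, is 7 bases long, and mt-Nd4 itself had -0.04 in KO and -0.12 in WT and was called in neither. The part of read assignment between these neighbours in the rise of mt-Nd4l was not tested. The gene mt-Nd5 rose in WT (0.28, SE 0.10, adjusted p = 0.0302 by edgeR, kept in 6 of 13 alternatives and lost among others with DESeq2) and had 0.03 in KO. In KO mt-Nd6 and mt-Co1 fell as well, by 0.57 and 0.28, against -0.36 and -0.12 in WT, which were not called. The mt-Nd6 call was lost without KO replicate 3 of day 7 and without replicate 2 or 3 of day 0, with adjusted p up to 0.0760 by edgeR. The gene mt-Nd6 lies on the opposite strand from the others and overlaps the end of mt-Nd5. No source used here states whether the counting used strand. Reads of that overlap therefore cannot be told apart, and reads of the other strand elsewhere in mt-Nd6 may have been counted with it. The part of such reads in the mt-Nd6 values was not tested. The other genes, mt-Nd2, mt-Cytb and mt-Atp8, had values within 0.17 of 0 on the log2 scale in both genotypes.

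**Figure D4:**
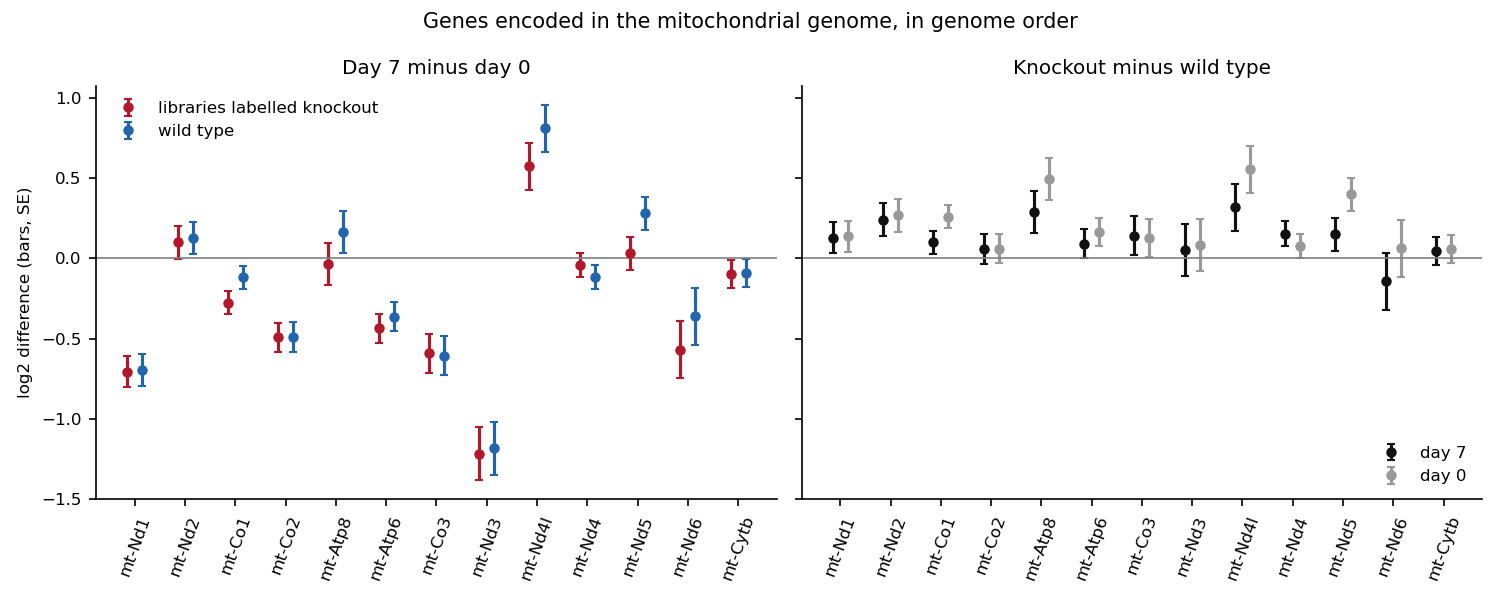
Log2 difference (vertical axis, with SE bars) of the 13 genes of the mitochondrial genome, in genome order: day 7 minus day 0 in libraries labelled KO and in WT (left), and KO minus WT at day 7 and at day 0 (right). On the left mt-Nd3 and mt-Nd4l, neighbours among the mRNA genes, stand at opposite ends; on the right 12 of 13 genes at day 7 and 13 of 13 at day 0 lie above 0, none of them called by edgeR.

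Between genotypes no respiratory chain gene was called by edgeR on either day. At day 7 the count was 0 of 95, where 0.026% of all genes were called, and at day 0 it was 0 of 95, where 0.13% were. At an unadjusted p under 0.05 there were 14 of 95 at day 7, where 8.18% of all genes reached it, and 19 of 95 at day 0, where 11.9% did. DESeq2 called 1 at day 7 (Ndufa6, log2 difference -0.29, adjusted p = 0.0324) and 3 at day 0 (Ndufa9 at -0.31, adjusted p = 0.0218; mt-Nd4l at 0.54, adjusted p = 0.0319; mt-Atp8 at 0.48, adjusted p = 0.0474), where it called 0.961% and 2.92% of all genes. For the interaction, KO change minus WT change over the 7 days, edgeR called 0 of the 95 genes, where it called 0.026% of all genes. DESeq2 also called 0 of them, where it called 0.825% of all genes. At an unadjusted p under 0.05 there was 1, where 6.86% of all genes reached it: Cox6c2, annotated as a processed pseudogene, with 0.49, 0.30 and 0.55 CPM in KO and 0.35, 0.27 and 0.39 CPM in WT at day 7, and 0.48, 0.64 and 0.34 CPM in KO and 1.318, 0.94 and 0.90 CPM in WT at day 0. It fell in WT by 1.66 (adjusted p = 0.00435 by edgeR) and had -0.10 in KO.

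The 2 classes leaned in opposite directions within that uncalled range. At day 7, 71 of 82 nuclear genes had a negative difference, KO minus WT, and 12 of 13 mitochondrially encoded genes a positive one, with medians of -0.12 and 0.13. At day 0 the numbers were 70 of 82 and 13 of 13, with medians of -0.14 and 0.14, beside medians over all genes of -0.02 at day 7 and 0.00 at day 0. Nuclear genes whose 3 KO libraries all lay below the 3 WT libraries numbered 35 of 82 at day 7, where 12.8% of all genes did so, and 14 of 82 at day 0, where 7.22% did. Mitochondrially encoded genes whose KO libraries all lay above WT numbered 4 of 13 at day 7, where 6.7% of all genes did, and 5 of 13 at day 0, where 8.48% did. Genes of 1 complex are not independent of each other, so these counts are descriptions. At day 0 the share of counts from mitochondrial rRNAs was also larger in every KO library than in every WT library, and at day 7 the ranges overlapped, as given above. Without KO replicate 1 the nuclear median at day 0 was -0.07, and without WT replicate 1 the mitochondrial one was 0.04 at day 0; without KO replicate 2 it was 0.07 at day 7.

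The nuclear genes that lay apart on both days numbered 8 of 82: Ndufa6, Ndufa8, Ndufa9, Ndufb7, Ndufs6, Cox5b, Cox7a2l and Atp5g1, all with lower values in KO. The share of all genes that lay apart the same way on both days was not counted. This number, and that of the mitochondrially encoded genes below, is therefore no result about the chain. Ndufa9, an accessory subunit that binds a nucleotide cofactor, had 80.8, 81.1 and 78.4 CPM in KO and 101.2, 91.3 and 89.8 CPM in WT at day 7, and 92.3, 104 and 102 CPM in KO and 114, 128 and 124 CPM in WT at day 0. The difference was small on both days, -0.23 (SE 0.08, adjusted p = 0.480) at day 7 and -0.30 (SE 0.08, adjusted p = 0.226) at day 0 by edgeR. Ndufa6 had the smallest p at day 7, with -0.29 (SE 0.08, adjusted p = 0.448), followed by Ndufv3 with -0.37 (SE 0.12, adjusted p = 0.478 by edgeR). Among the mitochondrially encoded genes mt-Nd2, mt-Co1 and mt-Atp8 lay apart on both days, higher in KO. At day 0 the smallest p of all was that of mt-Nd5, which had 1806, 1719 and 1967 CPM in KO and 1194, 1384 and 1586 CPM in WT, a log2 difference of 0.40 (SE 0.10, adjusted p = 0.217 by edgeR).

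The ratio of mitochondrially encoded to nuclear reads was 3.24, 3.65 and 3.31 in KO and 2.68, 2.98 and 3.17 in WT at day 7, and 2.96, 2.50 and 2.86 in KO and 2.03, 2.22 and 2.51 in WT at day 0. The lowest KO value and the highest WT value were close on both days, 3.24 against 3.17 at day 7 and 2.50 against 2.51 at day 0, where they overlapped. Day 7 lay above day 0 throughout in both genotypes.

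Genes outside the chosen symbols that build or serve the chain fell in part, and the counts of these lists stand beside 32.3% of all genes that fell and 31.1% that rose in KO, and 32.1% and 32.9% in WT. Of 17 complex I assembly factors tested, 11 fell and 1 rose in KO and 10 fell in WT. Ecsit and Dmac1 had the smallest adjusted p, Ecsit with -1.23 in KO and -1.34 in WT (adjusted p = 1.78e-06 and 8.51e-07 by edgeR), and Tmem126b rose by 0.70 in KO and had 0.18 in WT (adjusted p = 0.278). Of 22 complex IV factors 11 fell and 3 rose in KO, and 10 fell and 3 rose in WT, among them Higd2a (-0.99 in KO and -0.85 in WT) and Coa5 (0.59 in KO and 0.44 in WT). Of 6 complex III factors 4 fell in KO and 3 fell and 1 rose in WT, and of 4 complex II factors 1 fell in KO and 2 in WT. The 5 factors of ATP synthase were split. Tmem70 and Tmem242, which help to build the c ring, rose in both genotypes, by 1.43 and 1.05 in KO and by 1.10 and 0.93 in WT. Atpaf1, a chaperone of the catalytic head, fell by 1.11 in KO and by 1.29 in WT.

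Genes that copy and transcribe mitochondrial DNA were also mixed: 8 of 14 fell and 1 rose in each genotype, beside the same shares of all genes. The one that rose was Polg, the mitochondrial DNA polymerase, with 147, 150 and 131 CPM in KO at day 7 against 57.0, 46.4 and 55.1 CPM at day 0, and 168, 163 and 170 CPM in WT at day 7 against 62.4, 58.2 and 56.5 CPM at day 0 (log2 difference 1.43 in KO and 1.502 in WT, adjusted p = 1.24e-07 and 8.13e-08 by edgeR). Ssbp1, which coats single-stranded mitochondrial DNA, fell by 1.51 in KO and by 1.57 in WT. Of 19 genes that process or stabilise mitochondrial RNA, 11 fell and 1 rose in each genotype. Among them were Prorp (-1.47 in KO and -1.74 in WT) and Hsd17b10 (-1.43 in KO and -1.40 in WT), subunits of the RNase P that cuts tRNAs out of the mitochondrial transcript. Grsf1, an RNA-binding protein of mitochondrial RNA granules, rose by 0.96 in KO and by 0.89 in WT.

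In the tricarboxylic acid cycle, which feeds the chain, 5 of 14 genes fell and 3 rose in KO, and 4 fell and 3 rose in WT, near the shares of all genes and so no result about the cycle. The X-linked Idh3g fell by 1.44 in KO and by 1.43 in WT (adjusted p = 6.34e-09 and 6.15e-09 by edgeR), and Cs, citrate synthase, rose by 0.53 in KO and by 0.35 in WT. Of 13 genes of coenzyme Q synthesis 8 fell and 2 rose in KO, and 5 fell and 2 rose in WT, where the share that fell is near that of all genes. Of 6 further subunits and inhibitors with other symbols 5 fell and 1 rose in each genotype. Cyc1, cytochrome c1 of complex III, fell by 1.02 in KO and by 1.07 in WT, and Cyct, the testis cytochrome c, had no read at day 7 and 2.38 to 5.11 CPM at day 0. Ndufa4l2, a paralog of Ndufa4, rose by 1.16 in KO and by 0.90 in WT.

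Of 10 transcriptional regulators of respiratory genes tested, 3 fell and 1 rose in each genotype, a share of falls near that of all genes. Yy1 rose by 0.38 in KO and by 0.60 in WT. Esrrb, an orphan nuclear receptor that is also a naive state factor, had 2.26, 2.26 and 2.58 CPM in KO at day 7 against 205, 315 and 173 CPM at day 0, and 3.51, 3.74 and 2.86 CPM in WT at day 7 against 54.5, 38.5 and 38.5 CPM at day 0. It fell by 6.61 in KO and by 3.69 in WT, and it was the single gene of these lists called between genotypes: 2.40 at day 0 (adjusted p = 0.00147), with an interaction of -2.92 (adjusted p = 0.0152) by edgeR. The day 0 call was lost with only the 6 libraries compared (adjusted p = 0.0884 by edgeR). The interaction call was lost with the replicate block (0.0716) and without KO replicate 3 of day 7 (0.0580).

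The promoters of nuclear genes were read for the letters of 4 regulators, and 5 are shown as examples of a match, among them both genes with the receptor letters. RefSeq windows (GRCm38.p6, 250 bases before to 50 after the start) were matched for 69 of 85 nuclear symbols, and 68 of these genes were tested. The NRF1 palindrome, in capitals in the first 3 sequences and also present in Atp5g2 and Cox6a1, stood in 7.35% of the 68 genes and in 2.07% of 12315 tested genes with a window. The letters TCAAGGTCA, bound by receptors such as Esrrb, stood in 2.94% and 0.333%, and CCGGAAGTG, bound by ETS factors such as GABP, in 2.94% and 4.30%. The YY1 motif stood in 5.88% and 1.54%. ETS letters were those of Ndufs3 and Uqcrh, and YY1 matches those of Ndufs7, Ndufs6, Ndufa9 and Ndufs4. Both strands were searched, and a match is only a description of letters. Each sequence runs 5′ to 3′ on its gene's strand, and the capitals of the fourth and the fifth are the receptor letters read on the other strand.
Uqcrc1, chr9:108936398-108936697, + strand: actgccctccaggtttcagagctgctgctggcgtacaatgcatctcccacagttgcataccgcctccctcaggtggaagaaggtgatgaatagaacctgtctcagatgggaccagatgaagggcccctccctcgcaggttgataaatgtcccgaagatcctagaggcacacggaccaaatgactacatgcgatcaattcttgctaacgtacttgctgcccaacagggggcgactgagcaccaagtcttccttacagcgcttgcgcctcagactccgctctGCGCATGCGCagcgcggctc
Atp5k, chr5:108434350-108434649, - strand: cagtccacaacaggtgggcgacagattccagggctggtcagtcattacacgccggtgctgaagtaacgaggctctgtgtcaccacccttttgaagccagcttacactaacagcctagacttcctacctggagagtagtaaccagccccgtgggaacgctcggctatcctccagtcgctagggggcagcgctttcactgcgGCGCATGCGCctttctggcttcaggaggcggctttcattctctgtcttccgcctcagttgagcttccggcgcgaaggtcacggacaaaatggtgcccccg
Ndufa11, chr17:56717512-56717811, + strand: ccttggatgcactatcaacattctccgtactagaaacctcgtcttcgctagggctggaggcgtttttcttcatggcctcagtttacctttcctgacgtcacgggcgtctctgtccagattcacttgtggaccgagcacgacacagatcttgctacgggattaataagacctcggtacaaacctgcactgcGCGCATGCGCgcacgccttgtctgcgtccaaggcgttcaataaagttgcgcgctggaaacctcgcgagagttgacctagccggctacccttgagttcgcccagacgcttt
Atp5g3, chr2:73911277-73911576, - strand: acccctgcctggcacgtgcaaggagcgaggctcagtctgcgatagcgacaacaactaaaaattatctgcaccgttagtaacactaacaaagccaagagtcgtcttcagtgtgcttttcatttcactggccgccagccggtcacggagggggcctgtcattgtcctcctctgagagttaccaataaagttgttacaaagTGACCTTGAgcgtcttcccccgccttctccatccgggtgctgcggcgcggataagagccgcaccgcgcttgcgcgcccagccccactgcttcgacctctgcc
Sdhd, chr9:50603800-50604099, - strand: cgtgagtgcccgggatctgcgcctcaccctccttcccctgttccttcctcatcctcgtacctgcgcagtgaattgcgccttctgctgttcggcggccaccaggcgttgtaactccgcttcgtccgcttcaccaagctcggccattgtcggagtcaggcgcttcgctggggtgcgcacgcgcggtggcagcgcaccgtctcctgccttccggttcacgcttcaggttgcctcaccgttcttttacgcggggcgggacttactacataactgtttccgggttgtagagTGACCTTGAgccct

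For the genes shown, the log2 difference of day 7 minus day 0 was -0.71 in KO and -0.74 in WT for Uqcrc1, a core protein of complex III, and -0.98 in KO and -0.79 in WT for Atp5k, a small membrane subunit of ATP synthase. Ndufa11, which anchors the membrane arm of complex I, had -1.36 in KO and -0.88 in WT, with 1 KO library of day 7 at 37.9 CPM beside 70.1 and 72.4 CPM in the others, and Atp5g3 and Sdhd had the values given above, which were called in both genotypes for Atp5g3 and in neither for Sdhd. Atp5g1, with the largest fall of complex V, held none of the 4 motifs in its window.

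Genes with fewer bases in the union of their annotated exons tended to have lower values. This union can be longer than any single mRNA of the gene. Among the 82 nuclear genes the log2 difference, day 7 minus day 0, correlated with exon length at a Spearman rho of 0.26 in KO and 0.35 in WT, and over 14916 protein-coding genes at 0.23 in KO and 0.25 in WT. Pearson's r was 0.22 in KO and 0.30 in WT over the nuclear genes, and 0.20 in KO and 0.21 in WT over the protein-coding genes; genes are not independent replicates, and no p is given. The 41 shorter nuclear genes (231 to 1569 bases of exon) had a median of -0.80 in both genotypes, and the 41 longer ones (1587 to 8086 bases) had -0.55 in KO and -0.54 in WT. By this measure Atp5g1 (4912 bases) and Ndufb4 (1916) were among the longer genes, and Cox7b (1214) and Cox7c (1131) among the shorter ones. Length varied with the change over all genes as well, and its part in the falls given above was not tested. Between genotypes (KO minus WT), rho over the nuclear genes was 0.08 at day 7 and 0.27 at day 0. Over the protein-coding genes it was 0.21 at day 7 and 0.25 at day 0. The part of length in the differences between genotypes was not tested either.

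Because the cells are hybrids, reads that cover a strain difference could be given to genome 1 or genome 2; the column names do not say which strain is which. Among the respiratory chain genes 69 had at least 20 such reads in every library. Of 60 autosomal ones 30 had at most 5% of reads from genome 2 over all libraries and 4 at least 95%, beside 45.8% and 4.80% of 9038 autosomal genes. The other 26 lay between. These shares are near those of all autosomal genes and so no result about the chain. The part of read assignment to the genomes in them was not tested. The mitochondrial genes gave 8553210 reads to genome 1 and 1449 to genome 2, or 0.0169%.

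The X-linked Ndufb11, an accessory subunit of complex I (X, 20615326 to 20617619), was called for allelic balance in both genotypes. Its genome 2 share was 96.2, 94.8 and 93.8% in KO and 94.8, 93.2 and 95.7% in WT at day 7, against 50.2, 49.6 and 52.4% in KO and 51.1, 49.9 and 46.9% in WT at day 0. Both genotypes had a near even balance at day 0 and nearly all reads from genome 2 at day 7. The log2 change of the genome 2 to genome 1 ratio was 4.20 in KO and 4.18 in WT (SE 0.25 each; adjusted p = 4.94e-06 and 5.81e-06 by edgeR over 9344 genes), where 2.99% and 3.67% of all genes and 67.9% of X-linked genes in each genotype were called. Pooled over 286 X-linked genes without Xist, the share was 91.1 to 91.2% in KO and 90.5 to 91.4% in WT at day 7, against 53.2 to 53.6% in KO and 52.8 to 53.7% in WT at day 0. The total level of Ndufb11 fell by 0.91 in KO and by 0.75 in WT over the same days. The other X-linked genes, Cox7b and Ndufa1, had too few allele-resolved reads to test; Ndufa1 fell by 1.17 in KO and by 1.19 in WT.

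An autosomal gene was called in KO. Ndufa4, listed with complex I by its symbol and now regarded as a subunit of complex IV (chromosome 6, 11900292 to 11907497), had a genome 2 share of 29.9, 23.5 and 32.7% in KO and 58.5, 48.4 and 55.7% in WT at day 7, against 76.9, 75.3 and 77.7% in KO and 49.1, 82.4 and 54.8% in WT at day 0. The KO days lay far apart, with a log2 change of -3.04 (SE 0.51, adjusted p = 0.00753 by edgeR), and the WT days overlapped, with replicate 2 of day 0 standing apart (-0.56, SE 0.51, adjusted p = 0.857). The interaction did not pass (adjusted p = 1.00; 0.0528 without that library). Single libraries stood as far apart in genes chosen after their values were seen: Cox7a2l had 96.9, 17.5 and 19.2% in KO at day 0, and Ndufs6 had 84.1, 44.4 and 94.1% in KO at day 7. How reads were divided between genomes within a gene is not given in the sources used here, and the part of such single-library values in the Ndufa4 change was not tested. Between genotypes no respiratory chain gene was called for allelic balance on either day, where 0.0321% of all genes were called at day 7 and 0.0% at day 0.

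**Figure D5:**
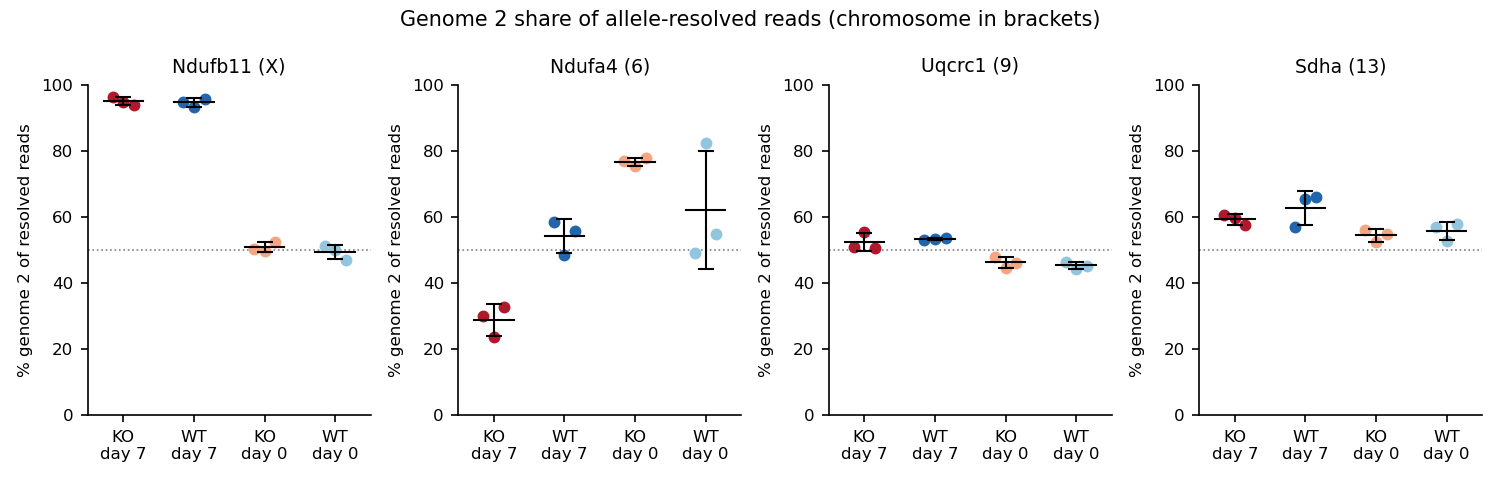
Genome 2 share, in percent of the reads given to genome 1 or genome 2, of 4 genes per library (points), with mean and SD of 3 libraries (lines) and a dotted line at 50%; brackets give the chromosome. Ndufb11 stood at 93.2 to 96.2% at day 7 and at 46.9 to 52.4% at day 0, Ndufa4 moved in the KO libraries, and the autosomal Uqcrc1 and Sdha stayed between 44.3 and 65.9%.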

How the data were processed

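The submitters' processing notes name StringTie 1.3.3, HISAT2 2.1.0, DESeq2 1.32.0, Trimmomatic 0.36, SAMtools 0.1.19 and FastQC 0.11.3, in no stated order, and the builds mm10 and GRCm38, with settings not given in the sources used here. Expected counts per gene, not normalized, were deposited for all reads and split by genome; being whole, they needed no rounding before the tests.

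All 55487 genes entered edgeR 4.0.16 (R 4.3.3; filterByExpr, TMM, 1 coefficient per group, 12 libraries, quasi-likelihood F-test), which left 19235; DESeq2 1.42.0 was an alternative. CPM are scaled to TMM library sizes. SE is that of the log2 difference, and the floor of 3 counts a group covers counting error only. Allelic balance was tested with genome 1 and genome 2 as 2 columns per library and a block per library. Exon lengths (the union of all annotated exons of a gene) and coordinates came from GENCODE M21 (GRCm38), which matched 99.4% of identifiers. Scripts were tested on simulated data.

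No replicate pair was as close as counting noise (chi-square divided by its degrees of freedom, 24.6 to 60.7). The per-library label of LIF treatment did not change between days, goes against the protocol, and was not used. The genes and lists were chosen with earlier results of these data known. Named are Sirt7, all mitochondrially encoded and X-linked genes, Cycs, the Sdh genes, tissue-restricted paralogs, up to 8 called genes each way per comparison (mean CPM of at least 1; the 2 with the smallest p where none was called), extremes per length, and up to 2 genes each way per list; others were picked for their role or after their values were seen. Transcript counts were not used.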

Additional observations from a re-analysis of the deposited data

How the results depend on the processing

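The number of genes called over 7 days was 83 in KO and 78 in WT, and stayed within 1.5 times that under every alternative run: DESeq2, RLE scaling, mitochondrial genes left out of the scaling, no filter, only the 6 libraries compared, and, added after seeing the data, pseudogene reads added to their parent gene. Leaving out each library in turn gave 72 to 80 in KO and 75 to 77 in WT. Between genotypes the count of 0 became 3 at day 0 and 1 at day 7 with DESeq2, and was 0 under the other alternatives. Over all genes edgeR called 25 at day 0, 5 at day 7 and 5 for the interaction, against 441, 163 and 143 with DESeq2, 6, 2 and 0 with a replicate block, and 8 for the interaction with no filter. With only the 6 libraries compared there were 0 at day 0 and 9 at day 7, and leaving out single libraries gave 20 to 55, 6 to 13 and 0 to 15. Same replicate numbers did not pair the libraries (correlations of -0.02 to 0.06); with the replicate block 76 genes were called in KO and 76 in WT. Allelic balance in WT was called for 1 gene, and for 2 without replicate 1 of day 7. Signs near 0 turned for genes that were not called: without single libraries mt-Nd5 in KO ran from -0.010 to 0.089, mt-Atp8 in KO from -0.15 to 0.13, mt-Nd4 in KO from -0.089 to 0.024 and Sdha in WT from -0.00444 to 0.067, and Sdha in WT was -0.00684 with RLE scaling and -0.00706 with DESeq2. Leaving out Atp5s and Atp5sl gave no value, as neither was among the genes. The cause of these differences was not tested. Tissue-restricted paralogs with few reads are limited by depth.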
